A study of Mus musculus with 9 samples.

Results

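The 34 genes described here encode the glycolysis enzymes, their tissue isoforms, the glucose and lactate carriers at either end of the pathway, and the kinases and branch enzymes next to it. They were taken by gene name. All 34 names occurred among the 54986 gene IDs of the files, and all 34 genes passed the filter for testing, 1 TPM or more in 3 or more of the 9 libraries. TPM is a level corrected for transcript length and for the total of the library, so levels of different genes may be set side by side. The name Pgm2 stood under a second gene ID on a patch sequence, which repeated nearly the same values and was not counted again (35 IDs in all). The names Pgm1 and Pgm2 follow the files, which place Pgm1 on chromosome 5 and Pgm2 on chromosome 4, whereas GENCODE M21 and RefSeq give these loci each other's name.

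Glycolysis splits glucose into pyruvate in the cytosol and yields ATP without oxygen. Pyruvate is then either oxidised in the mitochondria by pyruvate dehydrogenase or reduced to lactate and exported. Most steps are shared among enzymes encoded by several genes, whose products differ in kinetics, control and tissue. Fibroblasts that are reprogrammed toward pluripotency are known to shift from mitochondrial respiration toward glycolysis.

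The series was built around Tet2 and the Zscan4 proteins, SCAN domain zinc finger proteins of the early mouse embryo, in reprogramming. It held 3 libraries with overexpressed Zscan4f, 3 with overexpressed Zscan4f3A, a variant by its label, and 3 control libraries. Every one came from primary embryonic fibroblasts of C57BL/6 mice labelled D4-OSKM-2ndMEFs, so OSKM, the usual name for the reprogramming factors Oct4, Sox2, Klf4 and c-Myc, is part of the control label too. The sources used here give neither the changes that make the 3A form nor the meaning of D4, and the control titles name no empty vector. Nothing states that the 3 libraries of a group came from separate cultures, so the p-values measure the spread between libraries, which may be technical.

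Aligned sequence was estimated at 3.31 to 8.39 gigabases per library, lowest in Zscan4f3A replicate 3. Zscan4f itself stood at 570, 565 and 558 TPM in the Zscan4f libraries, at 827, 836 and 654 TPM in the Zscan4f3A libraries, and at 0.330, 0 and 0.960 TPM in control. Tet2 averaged 19.3 ± 0.942 TPM with Zscan4f, 22.5 ± 1.19 with Zscan4f3A and 28.3 ± 2.93 in control (SD, n = 3 each), and fell against control with Zscan4f (log2 fold change -0.53, limma adjusted p = 0.00244) but not past the threshold with Zscan4f3A (-0.31, adjusted p = 0.396). All 12 fibroblast markers were expressed, with summed levels of 15822 to 16029 TPM, 15783 to 16241 TPM and 15987 to 16088 TPM in the Zscan4f, Zscan4f3A and control libraries. Behind these like sums, 3 of the 12 were called higher with Zscan4f against control (Dcn, Pdgfra and Col1a2) and 6 lower, among them Pdgfrb (log2 fold change -0.50) and Fn1 (-0.32). For these and the marker counts that follow, 8.74% of all genes tested were called higher and 9.71% lower in the same comparison. The 12 epithelial markers summed to 205 to 212 TPM with Zscan4f, 84.6 to 91.4 TPM with Zscan4f3A and 76.2 to 77.8 TPM in control, and of the 8 tested 6 were called higher and 1 lower with Zscan4f against control. Sums of the 11 neuron markers were 810 to 833 TPM with Zscan4f, 733 to 754 TPM with Zscan4f3A and 737 to 749 TPM in control, with 4 of 5 tested called higher and 0 lower with Zscan4f against control. Most of this sum was Stmn2 in every group, at means of 600, 550 and 557 TPM in the Zscan4f, Zscan4f3A and control libraries. Of the 11, 5 stood at or under 1 TPM in every library. The 7 endothelial markers summed to 60.1 to 63.9 TPM with Zscan4f, 45.5 to 49.9 TPM with Zscan4f3A and 46.4 to 48.4 TPM in control (2 of 3 tested called higher, 1 lower), and the 8 macrophage markers to 26.2 to 27.7, 18.4 to 20.6 and 18.7 to 21.6 TPM in the same order of groups (1 of 4 higher, 1 lower). These marker differences ran beside every glycolytic rise given below. Their part in them was not tested, and in bulk RNA more cells of a type and more RNA per cell cannot be told apart. Of the 14 skeletal muscle markers, 4 were listed at 0 in every library, among them Myod1 and Myf5.

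With Zscan4f overexpressed, transcripts rose at many steps of the pathway, from the glucose carrier Slc2a3 to pyruvate kinase and lactate dehydrogenase A, while lactate dehydrogenase B and the pyruvate dehydrogenase kinase Pdk2 fell. Of the 34 genes, 14 were called higher and 2 lower than in control. A call here is a Benjamini-Hochberg adjusted p under 0.05 in limma over all 15837 genes tested. By the same rule 8.74% of all genes tested were called higher and 9.71% lower (18.5% in either direction). At an unadjusted p under 0.05 stood 22 of the 34 genes, against 31.1% of all. The median log2 fold change of the 34 was 0.26, against -0.00 over all genes tested. The libraries of Zscan4f lay wholly above those of control for 17 of the genes and wholly below for 4, where 19% and 19.2% of all genes did so. The 34 genes together took 0.737, 0.760 and 0.729% of the TPM in the Zscan4f libraries, 0.604, 0.567 and 0.593% in the Zscan4f3A libraries and 0.541, 0.574 and 0.580% in control.

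With Zscan4f3A against control, hardly any gene was called at all, so the absence of calls among the 34 (0 higher, 0 lower) says nothing particular about them. One gene of the 34, Pkm, had an unadjusted p under 0.05. Over all genes tested, 0.0189% were called higher and 0.0126% lower in that comparison (0.0316% in either direction), and 8.77% had an unadjusted p under 0.05. The smallest limma adjusted p among the 34 was 0.518, and the median log2 fold change was 0.02. The Zscan4f3A libraries lay wholly above control for 3 of the 34 genes (Slc2a3, Pkm and Galk1) and wholly below for 0, where 6.29% and 9.09% of all genes did so. The direct test of Zscan4f against Zscan4f3A called 12 of the 34 higher and 2 lower, where 7.48% and 7.64% of all genes were called (15.1% in either direction). There 26 of the 34 had an unadjusted p under 0.05, against 29.5% of all, and the median log2 fold change of the 34 was 0.23. The Zscan4f libraries lay wholly above those of Zscan4f3A for 18 of the 34 and wholly below for 4, against 18.3% and 16.5% of all genes. Both comparisons with Zscan4f use the same Zscan4f libraries, so they are not independent of each other.

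**Figure D1:**
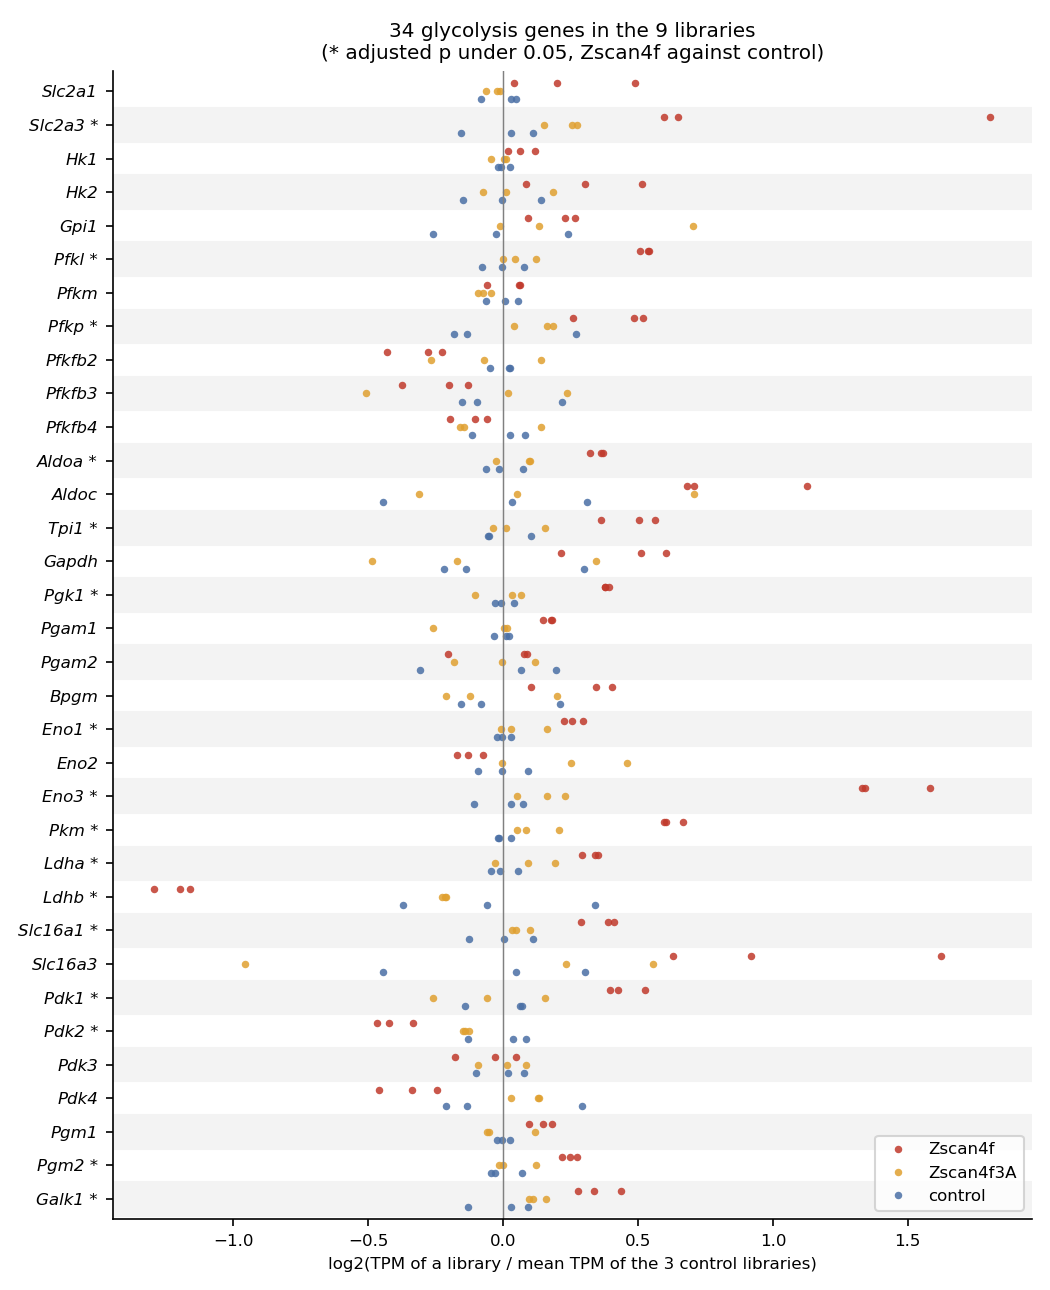
Level of each of the 34 genes in every library, as the log2 of its TPM over the mean TPM of the 3 control libraries. Points are libraries, coloured by group, and an asterisk marks an adjusted p under 0.05 for Zscan4f against control. The red Zscan4f points lie to the right for most enzymes. They lie to the left of all control points for Ldhb, Pdk2, Pfkfb2 and Pdk4. The Zscan4f3A points mostly overlap control.

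At the entry of the pathway, 2 facilitative glucose carriers were followed. Slc2a3 (chr6:122727809-122801640, minus strand, GRCm38, as are all gene positions here) encodes GLUT3, a carrier with high affinity for glucose. It had 52.1, 50.2 and 116 TPM in the Zscan4f libraries, 39.7, 40.2 and 36.9 TPM in the Zscan4f3A libraries and 33.97, 35.95 and 29.8 TPM in control. The groups did not overlap, but Zscan4f replicate 3 stood at more than double the other Zscan4f libraries. The log2 fold change against control was 1.00 ± 0.28 (SE, limma adjusted p = 0.0367), and 0.61 with adjusted p = 0.00322 without that library. Against Zscan4f3A it was 0.78 and was not called (adjusted p = 0.0986), and without that library it was 0.39 and called (adjusted p = 0.0278). Slc2a1, which encodes GLUT1, the common carrier of dividing cells, had 19.1, 21.4 and 26.1 TPM with Zscan4f, 18.45, 18.3 and 17.8 TPM with Zscan4f3A and 19.2, 19.0 and 17.6 TPM in control. Its difference from control was not called (log2 fold change 0.23, adjusted p = 0.156). Slc2a3 made up 74.98 ± 5.98% of the summed TPM of both carriers with Zscan4f, 68.1 ± 0.635% with Zscan4f3A and 64.1 ± 1.28% in control (SD, n = 3).

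The hexokinases, which trap glucose by phosphorylating it, were not called in any comparison. Hk1, the housekeeping form, averaged 114 ± 3.93 TPM with Zscan4f, 108 ± 2.24 TPM with Zscan4f3A and 109 ± 1.81 TPM in control. Hk2, the inducible form, stayed between 4.46 and 7.06 TPM over all libraries. Hk1 held 94.1 to 96.0% of the hexokinase TPM in every library. Gpi1, the isomerase that makes fructose 6-phosphate, had 424, 435 and 386 TPM with Zscan4f, 397, 359 and 590 TPM with Zscan4f3A and 303, 428 and 355 TPM in control. The groups overlapped, the highest value being that of Zscan4f3A replicate 3, and no difference was called (adjusted p = 0.506 for Zscan4f against control).

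Phosphofructokinase commits sugar to glycolysis and is assembled from 3 subunit types. Pfkl (chr10:77986947-78010083, minus strand), the liver type, had 82.1, 83.9 and 83.9 TPM with Zscan4f, 57.7, 59.5 and 62.9 TPM with Zscan4f3A and 57.6, 60.9 and 54.7 TPM in control. Every Zscan4f library lay above all others, with a log2 fold change of 0.52 ± 0.050 against control (adjusted p = 0.00021) and 0.47 ± 0.050 against Zscan4f3A (adjusted p = 0.000584). Pfkm, the muscle type, averaged 63.9 ± 3.04, 59.99 ± 1.05 and 62.99 ± 2.56 TPM in the Zscan4f, Zscan4f3A and control libraries and was not called (adjusted p = 0.833 against control). Pfkp, the platelet type, had 45.7, 39.1 and 46.7 TPM with Zscan4f, 33.6, 37.1 and 36.5 TPM with Zscan4f3A and 28.8, 29.8 and 39.4 TPM in control. It was called higher against control (log2 fold change 0.42, adjusted p = 0.0402), although control replicate 3 lay above the lowest Zscan4f library, and it was not called against Zscan4f3A (0.28, adjusted p = 0.152). The liver type was therefore 43.6 ± 1.83% of the phosphofructokinase TPM with Zscan4f, 38.5 ± 1.01% with Zscan4f3A and 37.6 ± 1.92% in control, and the muscle type 33.5 ± 0.505%, 38.5 ± 1.44% and 41.1 ± 1.76%.

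Fructose 2,6-bisphosphate, the strongest activator of phosphofructokinase, is made and broken down by the bifunctional Pfkfb enzymes, and none of the 3 measured here was called. Pfkfb2 had 17.4, 15.1 and 16.8 TPM with Zscan4f, 19.4, 16.9 and 22.5 TPM with Zscan4f3A and 20.7, 20.8 and 19.7 TPM in control (log2 fold change -0.29 against control, adjusted p = 0.0747). Pfkfb3 averaged 12.1 ± 1.04, 13.7 ± 3.43 and 14.2 ± 2.04 TPM in the Zscan4f, Zscan4f3A and control libraries. Pfkfb4 was the lowest at 5.48 to 6.93 TPM over all libraries. Their summed TPM was 34.4 ± 0.850 with Zscan4f, 39.4 ± 4.98 with Zscan4f3A and 40.9 ± 1.74 in control, the only step of 18 whose Zscan4f libraries all lay below control.

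Aldolase splits the sugar into 3-carbon units, which triose-phosphate isomerase interconverts. Aldoa had 812, 840 and 834 TPM with Zscan4f, 637, 694 and 694 TPM with Zscan4f3A and 622, 682 and 643 TPM in control. All Zscan4f libraries lay above the rest, with a log2 fold change of 0.35 ± 0.046 against control (adjusted p = 0.00101). Aldoc, the brain form, was under 1% of the aldolase TPM in every library and was not called (5.21 ± 0.941, 3.34 ± 1.23 and 2.89 ± 0.733 TPM in the Zscan4f, Zscan4f3A and control libraries). Tpi1 had 256, 282 and 294 TPM with Zscan4f, 201, 222 and 194 TPM with Zscan4f3A and 192, 214 and 192 TPM in control, again without overlap. Its log2 fold change was 0.48 ± 0.072 against control (adjusted p = 0.00223) and 0.43 ± 0.072 against Zscan4f3A (adjusted p = 0.00465).

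Gapdh (chr6:125161715-125166467, minus strand), which makes the first high-energy phosphate of the pathway and is often used as a constant reference gene, was spread widely within each group. It had 1109, 1180 and 902 TPM with Zscan4f, 988, 690 and 556 TPM with Zscan4f3A and 668, 708 and 956 TPM in control. The groups overlapped and the difference from control was not called (log2 fold change 0.46 ± 0.22, adjusted p = 0.188). In sequence, Gapdh was matched by 75 other gene IDs with at least 95% identity over at least 80% of their transcript. Reads from such copies and from Gapdh cannot be told apart with certainty, and the sources used here do not say how the authors shared them out. To show how alike the loci are, the bases 331 to 390 of the Gapdh coding sequence follow with the matching bases of 2 of the 3 copies with the highest level, read from the GENCODE M21 transcripts, with capitals where a copy differs from Gapdh.

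Gapdh (chromosome 6): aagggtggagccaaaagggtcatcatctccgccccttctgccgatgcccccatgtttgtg
RP23-338O4.6 (chromosome 2): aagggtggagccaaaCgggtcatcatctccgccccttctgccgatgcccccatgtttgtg
RP23-227C11.1 (chromosome 11): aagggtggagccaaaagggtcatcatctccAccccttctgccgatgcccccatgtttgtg

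Both copies are annotated as processed pseudogenes, and each differed from Gapdh at 1 of these 60 bases (99.9% identity over the aligned length). Of the windows whose ends matched in all copies compared, the one with the most differences was chosen. RP23-338O4.6 alone was given 133, 146 and 142 TPM with Zscan4f, 115, 117 and 107 TPM with Zscan4f3A and 110, 109 and 103 TPM in control. The 75 copies together held 1320, 1439 and 1397 TPM with Zscan4f, 1112, 1134 and 1404 TPM with Zscan4f3A and 1033, 1086 and 1032 TPM in control, more than Gapdh itself in 9 of 9 libraries. Summed with its copies, Gapdh reached 2429, 2619 and 2299 TPM with Zscan4f, 2100, 1825 and 1959.5 TPM with Zscan4f3A and 1701, 1794 and 1988.5 TPM in control. The Zscan4f libraries then lay above all others. In this sum, an alternative chosen after the values were seen, the log2 fold change was 0.42 ± 0.074 against control (limma adjusted p = 0.00472) and 0.32 ± 0.074 against Zscan4f3A (adjusted p = 0.0215).

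Copies were found for 8 of the 34 genes, 87 gene IDs in all, and their weight differed much by gene. Eno1 had 3, of which Eno1b at 99.48% identity was given 276, 297 and 297 TPM with Zscan4f, 236, 237 and 201 TPM with Zscan4f3A and 227, 220 and 212 TPM in control. Eno1 itself was called without them, and their addition raised its log2 fold change against control to 0.31. For Pgk1, Pkm, Tpi1, Ldha and Ldhb the copies held under 5% of the summed TPM in every library. Pgam1 had 1 copy, Pgam1-ps2, with 41.1, 39.1 and 39.3 TPM with Zscan4f, 32.5, 37.0 and 99.8 TPM with Zscan4f3A and 35.6, 36.2 and 41.1 TPM in control. The value of 99.8 TPM belonged to Zscan4f3A replicate 3, the library with the least sequence, in which Gpi1 was highest and Gapdh and Pgam1 were lowest. In the same library 25 of the 44 Gapdh copies that reached 1 TPM anywhere had their highest value, the copies under 99% identity summed to 124 TPM against 29.8 to 43.8 TPM in the other 8 libraries, and processed pseudogenes took 6.66% of all TPM against 6.01 to 6.20%. Without it, 16 of the 34 genes were called higher and 3 lower with Zscan4f against control, while over all 15837 genes 1582 were called higher and 1703 lower, against 1384 and 1538 with it. Against Zscan4f3A, 12 of the 34 were then called higher and 1 lower (961 and 1026 of all genes).

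**Figure D2:**
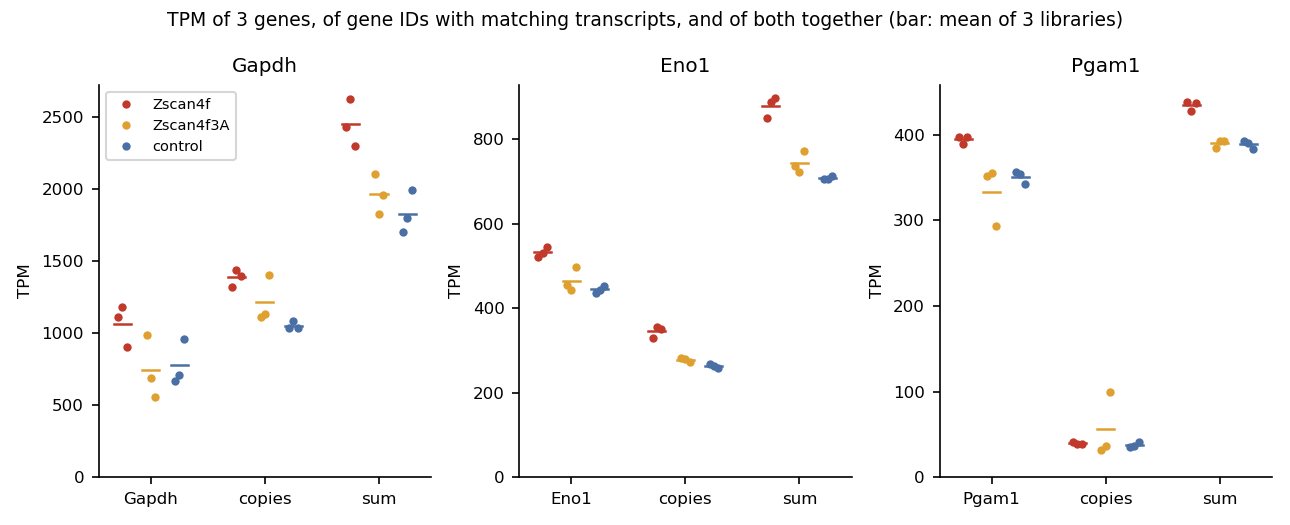
TPM of Gapdh, Eno1 and Pgam1 alone, of the gene IDs whose transcripts match them, and of both together, on linear axes that start at 0. Points are libraries and bars are means of 3, and the Zscan4f libraries of Gapdh separate from the other groups only in the sum (2299 to 2619 TPM against at most 2100 TPM).

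Of the steps that follow Gapdh, the ATP-yielding kinase rose with Zscan4f in both comparisons and the mutase in 1. Pgk1, phosphoglycerate kinase, had 463, 464 and 468 TPM with Zscan4f, 373, 364 and 332 TPM with Zscan4f3A and 349, 355 and 366 TPM in control. The Zscan4f libraries differed from each other by far less than from the rest, and the log2 fold change was 0.38 ± 0.045 against control (adjusted p = 0.000576) and 0.38 ± 0.045 against Zscan4f3A (adjusted p = 0.000831). Pgam1, the phosphoglycerate mutase of most tissues, had 397, 389 and 398 TPM with Zscan4f, 352, 355 and 293 TPM with Zscan4f3A and 357, 354 and 343 TPM in control. It lay above control in every Zscan4f library but was not called there (log2 fold change 0.17, adjusted p = 0.129), and it was called against Zscan4f3A (0.25, adjusted p = 0.0411). Summed with its copy it was called in both comparisons, at 0.16 against each (adjusted p = 0.00342 and 0.00488).

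Pgam2, the muscle mutase, was not called (adjusted p = 0.995 against control), at 4.32 ± 0.480, 4.29 ± 0.445 and 4.34 ± 0.750 TPM in the Zscan4f, Zscan4f3A and control libraries. Bpgm, which diverts the substrate to 2,3-bisphosphoglycerate and is best known from red cells, had 95.6, 118 and 113 TPM with Zscan4f, 102, 81.8 and 76.9 TPM with Zscan4f3A and 84.2, 80.1 and 103 TPM in control. These groups overlapped and no difference was called. None of the 9 erythroid markers reached the level for testing, and they summed to 1.10 to 2.26 TPM with Zscan4f, 1.30 to 2.30 TPM with Zscan4f3A and 0.966 to 2.08 TPM in control.

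Enolase, which forms phosphoenolpyruvate, showed the largest rise of the 34 genes in its muscle isoform. Eno3 (chr11:70657202-70662513, plus strand) had 88.0, 73.8 and 74.4 TPM with Zscan4f, 30.4, 32.9 and 34.4 TPM with Zscan4f3A and 27.3, 30.9 and 29.9 TPM in control. The lowest Zscan4f library was more than double the highest of the others. The log2 fold change was 1.39 ± 0.083 against control (adjusted p = 1.61e-05) and 1.24 ± 0.083 against Zscan4f3A (adjusted p = 4.44e-05). Eno1, the form of most tissues, had 520, 531 and 545 TPM with Zscan4f, 454, 442 and 498 TPM with Zscan4f3A and 437, 443 and 453 TPM in control (0.26 against control, adjusted p = 0.00488). Eno2, the neuronal form, was not called, and averaged 10.8 ± 0.369, 14.01 ± 2.24 and 11.8 ± 0.772 TPM in the Zscan4f, Zscan4f3A and control libraries. Eno3 made up 12.7 ± 1.34% of the enolase TPM with Zscan4f, 6.38 ± 0.334% with Zscan4f3A and 6.05 ± 0.317% in control, and the difference between Zscan4f and control of 6.63 percentage points was 4.23 when the copies of Eno1 were added. Of the skeletal muscle markers, 4 of 14 were tested and 1, Acta1, was called higher with Zscan4f against control, and the list summed to 37.2 to 41.7 TPM with Zscan4f, 29.8 to 38.5 TPM with Zscan4f3A and 29.6 to 32.4 TPM in control.

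Pkm (chr9:59656368-59679375, plus strand), pyruvate kinase, had the highest level of the 34 genes in every group by the values given to each gene alone. With its copies, Gapdh stood above Pkm with its copies in every group, at means of 2449, 1962 and 1828 TPM against 1809, 1277 and 1175 TPM in the Zscan4f, Zscan4f3A and control libraries. Pkm alone had 1782, 1861 and 1771 TPM with Zscan4f, 1243, 1214 and 1354 TPM with Zscan4f3A and 1159, 1198 and 1161 TPM in control. The log2 fold change was 0.62 ± 0.043 against control (adjusted p = 3.66e-05) and 0.51 ± 0.043 against Zscan4f3A (adjusted p = 0.000175). The Zscan4f3A libraries also all lay above control, by 0.11, which was not called (adjusted p = 0.518). The files give 1 value per gene, so the M1 and M2 splice forms of Pkm are not separated. Pkm shares 3887 bases with RP23-320D23.6, a gene on the same strand that was given 24.2 to 37.7 TPM.

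The fate of pyruvate showed opposite movements of related genes. Ldha (chr7:46841475-46855627, plus strand), the lactate dehydrogenase subunit that favours lactate formation, had 630, 657 and 652 TPM with Zscan4f, 550, 505 and 588 TPM with Zscan4f3A and 499, 536 and 511 TPM in control. Ldhb (chr6:142490249-142507957, minus strand), the subunit that favours the return of lactate to pyruvate, had 15.3, 14.9 and 13.9 TPM with Zscan4f, 29.4, 29.4 and 29.2 TPM with Zscan4f3A and 32.7, 43.2 and 26.3 TPM in control. Neither gene's Zscan4f libraries overlapped the other groups. Ldha was 0.33 ± 0.055 higher than control on the log2 scale (adjusted p = 0.00377) and Ldhb -1.13 ± 0.15 (adjusted p = 0.000975), and against Zscan4f3A the values were 0.24 (adjusted p = 0.0203) and -0.95 (adjusted p = 0.00316). Ldhb made up 2.22 ± 0.137% of the summed TPM of both with Zscan4f, 5.10 ± 0.390% with Zscan4f3A and 6.17 ± 1.28% in control.

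The monocarboxylate carriers move lactate and pyruvate across the plasma membrane. Slc16a1, MCT1, had 19.0, 18.8 and 17.5 TPM with Zscan4f, 14.6, 15.3 and 14.8 TPM with Zscan4f3A and 15.5, 14.4 and 13.1 TPM in control, and was called higher against both (log2 fold change 0.35, adjusted p = 0.0103, against control and 0.29, adjusted p = 0.0286, against Zscan4f3A). Slc16a3, MCT4, the exporter typical of highly glycolytic cells, had 17.8, 8.95 and 10.9 TPM with Zscan4f, 8.52, 2.98 and 6.80 TPM with Zscan4f3A and 7.14, 4.25 and 5.98 TPM in control. All its Zscan4f libraries lay above the other groups, by 0.97 ± 0.35 against control, but the spread within groups was wide and the difference was not called (adjusted p = 0.0954), whereas without Zscan4f3A replicate 2, the lowest library, it was (adjusted p = 0.0379).

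The pyruvate dehydrogenase kinases, which limit the oxidation of pyruvate in the mitochondria by inactivating pyruvate dehydrogenase, moved in different directions. Pdk1, an isoform induced by hypoxia, had 22.8, 21.2 and 20.8 TPM with Zscan4f, 13.2, 15.2 and 17.6 TPM with Zscan4f3A and 16.6, 16.5 and 14.3 TPM in control, 0.43 ± 0.10 above control (adjusted p = 0.0213). Pdk2, a widely expressed isoform, had 30.6, 31.5 and 33.5 TPM with Zscan4f, 38.3, 38.1 and 38.7 TPM with Zscan4f3A and 43.3, 38.6 and 44.9 TPM in control, a log2 fold change of -0.39 ± 0.063 (adjusted p = 0.00301). Both were also called against Zscan4f3A, at 0.48 (adjusted p = 0.0168) and -0.26 (adjusted p = 0.0257). Pdk3, the most abundant of the family in every group at 42.0 to 50.4 TPM over all libraries, and Pdk4, the least at 2.08 to 3.51 TPM, were not called. All Zscan4f libraries of Pdk4 nevertheless lay below those of the other groups. The kinases together summed to 102 ± 2.90 TPM with Zscan4f, 104 ± 0.646 TPM with Zscan4f3A and 108 ± 4.78 TPM in control, with overlapping libraries, while Pdk1 made up 21.3 ± 0.465% of that sum with Zscan4f, 14.7 ± 2.21% with Zscan4f3A and 14.6 ± 1.64% in control.

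**Figure D3:**
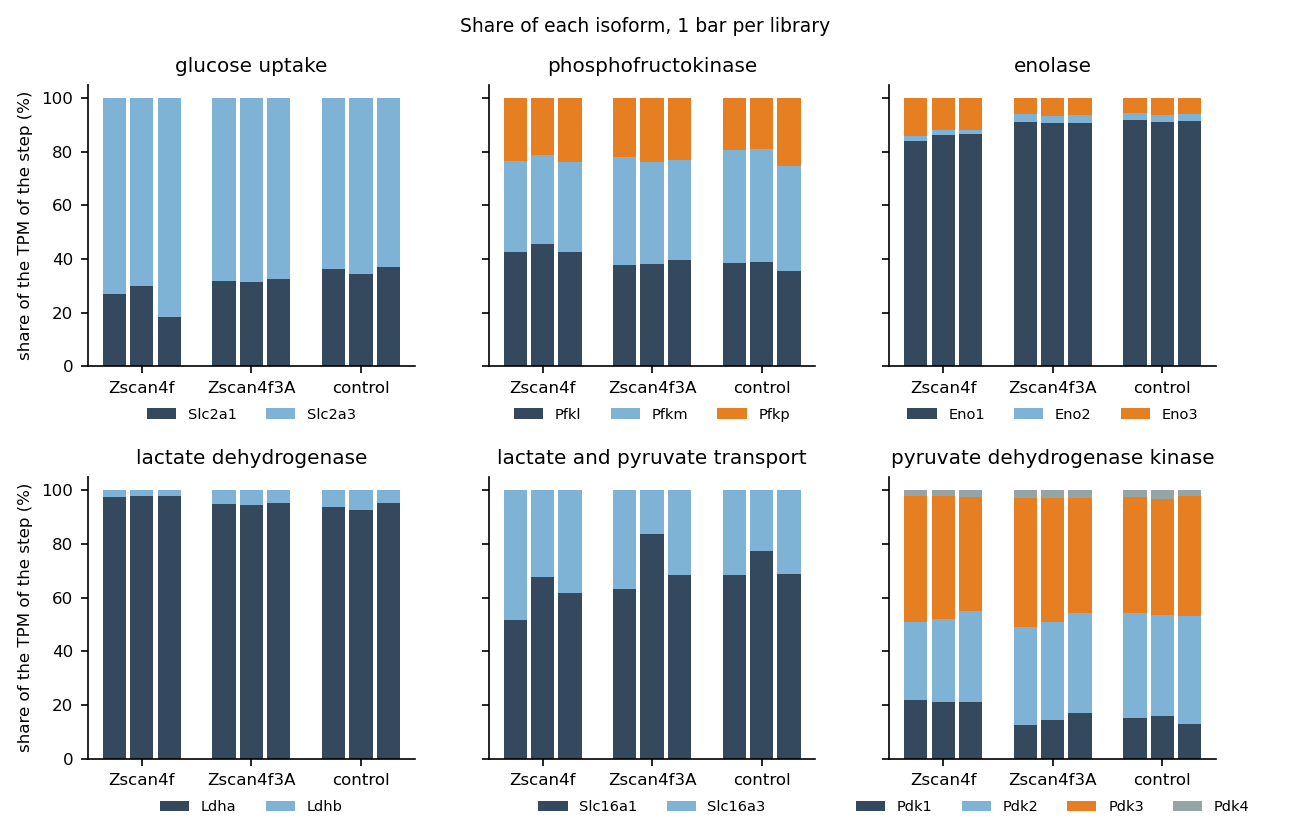
Share of each isoform in the summed TPM of its step, for 6 steps, with 1 bar per library and bars from 0 to 100%. Slc2a3, Pfkl, Eno3, Ldha and Pdk1 took larger shares in the Zscan4f libraries than in control (Eno3 12.7 against 6.05%, Pdk1 21.3 against 14.6% on average).

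Galk1, galactokinase, brings galactose into the same pool of sugar phosphates. It had 113, 126 and 117 TPM with Zscan4f, 100, 104 and 99.3 TPM with Zscan4f3A and 99.2, 94.9 and 84.9 TPM in control, and was called against control (log2 fold change 0.35, adjusted p = 0.00582) and against Zscan4f3A (0.23, adjusted p = 0.0468). The phosphoglucomutase reaction connects glycogen and galactose to glycolysis, and the genes given here were assigned to it by name. Pgm2 had 23.2, 22.6 and 23.5 TPM with Zscan4f, 19.5, 19.3 and 21.2 TPM with Zscan4f3A and 18.9, 20.5 and 19.1 TPM in control, and was called against control (0.24, adjusted p = 0.0233) and not against Zscan4f3A (0.20, adjusted p = 0.0514). Pgm1 had 56.6, 55.3 and 53.2 TPM with Zscan4f, 54.1, 48.0 and 47.9 TPM with Zscan4f3A and 49.7, 49.1 and 50.8 TPM in control and was not called (adjusted p = 0.124).

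**Figure D4:**
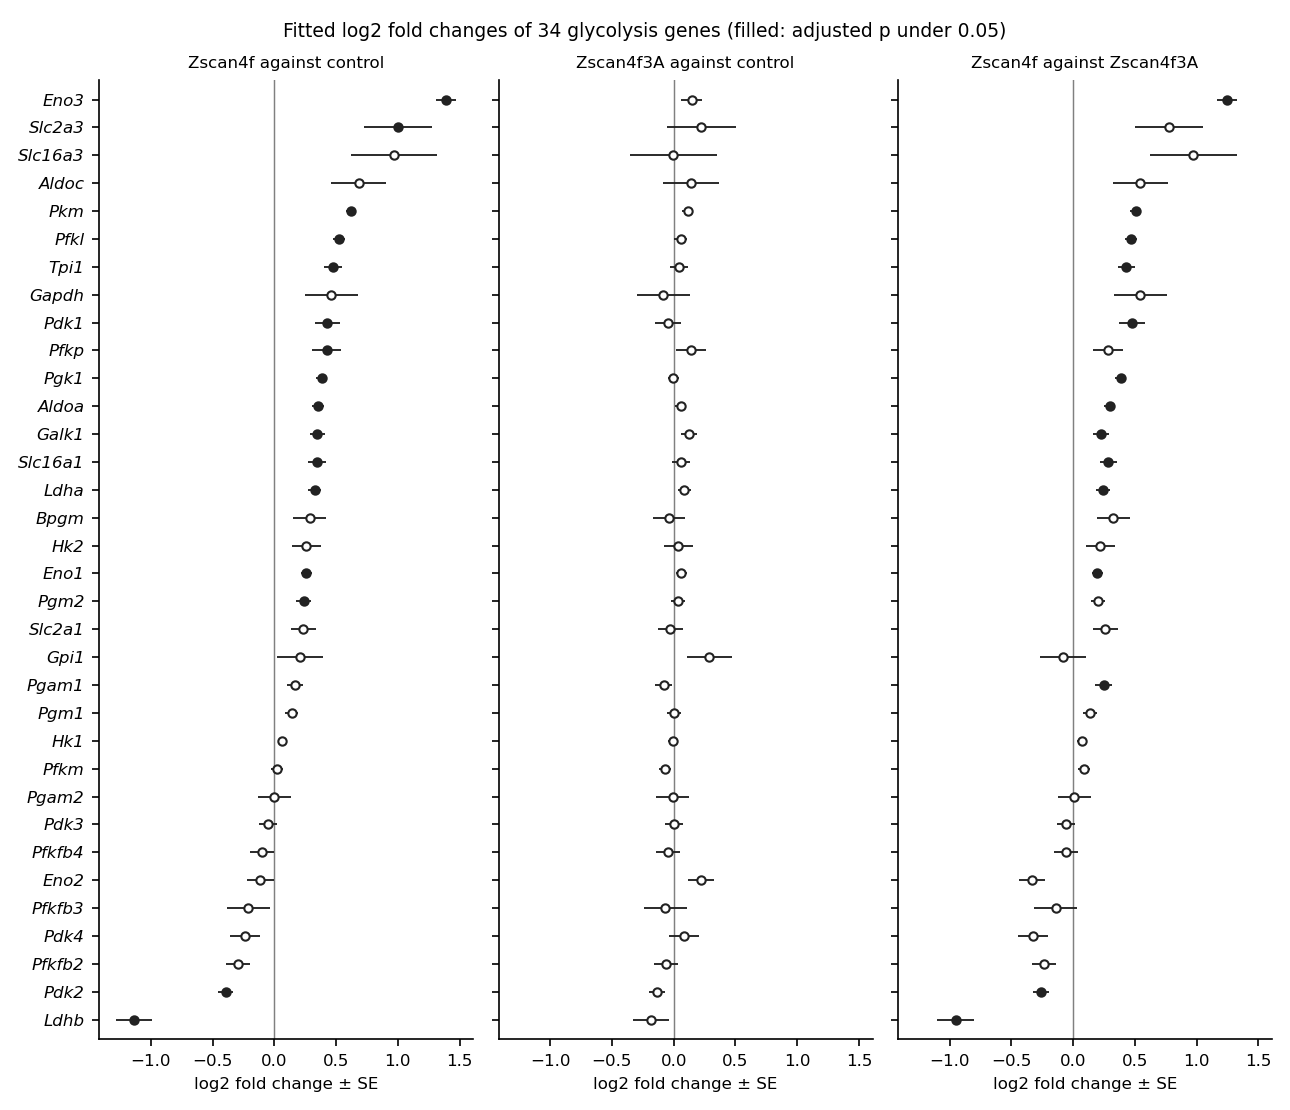
Fitted log2 fold change with its SE for the 34 genes in the 3 comparisons, sorted by Zscan4f against control, with filled points for an adjusted p under 0.05. The left and right panels hold 16 and 14 filled points and the middle panel, Zscan4f3A against control, none (0 of 34).

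Summed by reaction, the 34 genes formed 18 steps. In 12 of them every Zscan4f library was above every control library, in 1 below, and in 5 the libraries overlapped. Against Zscan4f3A the counts were 13, 0 and 5, and for Zscan4f3A against control they were 2, 0 and 16. Among single genes tested, 19% lay wholly above and 19.2% wholly below for Zscan4f against control. These shares were 18.3% and 16.5% for Zscan4f against Zscan4f3A, and 6.29% and 9.09% for Zscan4f3A against control. The ratio of the Zscan4f mean to the control mean was 1.54 for pyruvate kinase, 1.39 for triose-phosphate isomerase, 1.30 for phosphoglycerate kinase, 1.28 for both enolase and aldolase, 1.25 for phosphofructokinase and 1.12 for phosphoglycerate mutase. It was 1.05 for hexokinase, 1.15 for glucose-6-phosphate isomerase and 1.37 for glyceraldehyde-3-phosphate dehydrogenase without its copies, all 3 with overlapping libraries. The ratio was highest for glucose uptake, at 1.83, where the spread was wide (95.1 ± 40.9 TPM with Zscan4f and 51.9 ± 3.93 TPM in control). That step sums Slc2a1 and Slc2a3 alone, and its Zscan4f libraries stood at 71.2, 71.6 and 142 TPM. Other sugar carriers were left out of it. Among them were Slc2a6, with means of 86.9 TPM with Zscan4f and 75.6 TPM in control, and Slc2a8, with 21.2 and 23.6 TPM. The rank therefore holds only for the carriers summed. For lactate and pyruvate transport the ratio was 1.54. These totals carry no test.

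Among themselves the 34 genes spanned a wide range of levels. In control, by the values of each gene alone, Pkm (1172 TPM), Gapdh (777 TPM), Aldoa (649 TPM) and Ldha (515 TPM) led, and Hk2, Pgam2, Aldoc and Pdk4 stood last at 2.86 to 4.94 TPM. Gpi1, Pgk1 and Pgam1 came sixth to eighth at 362 ± 62.9, 357 ± 8.97 and 351 ± 7.39 TPM and did not differ beyond their spread. The median SD between libraries of a group was 0.107 on the log2 scale for the 34 genes and 0.126 over all genes tested. It was 0.0695 for genes at or above the median level of the 34. That set leaves out the lower levels among the 34, so 0.107 and 0.0695 do not compare genes of like level.

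RefSeq promoter windows of 300 bases on GRCm38.p6, most of each upstream of a transcript start, were matched to 33 of the 34 genes. Those of the genes called higher with the largest rises that had an entry, Eno3, Pkm and Pfkl, are shown first, and those of Ldha and Ldhb follow because this pair moved in opposite directions. Capitals mark the letters searched for, on both strands. They were ACGTG and GCGTG, the cores of the hypoxia response element, CACGTG, the E-box bound by Myc, and TGCACAC, a sequence described for Zscan4.

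Eno3, chr11:70656926-70657225, plus strand: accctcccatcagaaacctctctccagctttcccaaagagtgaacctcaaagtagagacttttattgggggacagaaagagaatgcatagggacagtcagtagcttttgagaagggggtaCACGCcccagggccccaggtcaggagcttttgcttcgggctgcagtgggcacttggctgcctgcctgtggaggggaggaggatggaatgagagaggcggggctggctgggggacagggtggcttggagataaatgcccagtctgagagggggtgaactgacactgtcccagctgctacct
Pkm, chr9:59656326-59656625, plus strand: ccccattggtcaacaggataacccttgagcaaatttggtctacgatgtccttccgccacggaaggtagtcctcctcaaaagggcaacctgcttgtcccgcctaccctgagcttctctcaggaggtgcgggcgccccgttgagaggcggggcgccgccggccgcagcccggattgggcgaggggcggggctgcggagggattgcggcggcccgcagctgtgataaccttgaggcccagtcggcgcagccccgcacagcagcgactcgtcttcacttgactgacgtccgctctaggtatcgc
Pfkl, chr10:78009758-78010057, minus strand: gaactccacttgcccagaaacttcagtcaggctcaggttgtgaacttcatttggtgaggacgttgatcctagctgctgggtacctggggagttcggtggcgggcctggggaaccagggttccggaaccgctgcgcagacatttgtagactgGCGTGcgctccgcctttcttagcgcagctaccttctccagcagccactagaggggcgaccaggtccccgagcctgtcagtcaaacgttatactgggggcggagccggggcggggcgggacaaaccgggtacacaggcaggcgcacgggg
Ldha, chr7:46845554-46845853, plus strand: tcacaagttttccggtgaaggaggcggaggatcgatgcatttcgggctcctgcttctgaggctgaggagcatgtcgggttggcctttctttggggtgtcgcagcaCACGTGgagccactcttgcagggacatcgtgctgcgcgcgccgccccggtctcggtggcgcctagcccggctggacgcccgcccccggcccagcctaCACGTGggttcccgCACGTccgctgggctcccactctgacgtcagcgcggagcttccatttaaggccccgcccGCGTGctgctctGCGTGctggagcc
Ldhb, chr6:142507908-142508207, minus strand: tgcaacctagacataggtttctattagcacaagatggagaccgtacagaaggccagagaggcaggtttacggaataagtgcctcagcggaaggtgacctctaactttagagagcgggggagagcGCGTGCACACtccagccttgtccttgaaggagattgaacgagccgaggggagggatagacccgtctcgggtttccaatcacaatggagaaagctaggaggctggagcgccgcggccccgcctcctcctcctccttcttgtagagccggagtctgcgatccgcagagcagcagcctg

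The Ldha window held CACGTG at 2 places, each of which also contains ACGTG on both strands, 1 further ACGTG and 2 GCGTG, but this transcript start lies 4329 bases from the start of the gene in the files. Eno3 held GCGTG once on the reverse strand and only 3 CpG, Pfkl GCGTG once, Pkm none of the searched letters in this window, and Ldhb GCGTG overlapping TGCACAC. Over the 33 genes, 16 held ACGTG, 16 GCGTG, 5 CACGTG and 3 TGCACAC, where 19.6%, 32.4%, 7.15% and 4.4% of all 32851 listed promoters did. Of the 15 genes called against control that had a promoter entry, 6 held ACGTG, 8 GCGTG, 4 CACGTG and 1 TGCACAC. The windows of the 33 genes had a median of 18 CpG (0 to 42), against 7 over all listed promoters. A match is a match of letters and not a measured site.

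Neighbouring pathways were followed in 6 lists, whose counts against control stand beside the 8.74% called higher and 9.71% called lower over all genes tested. Of 13 tested among 23 other isoforms and sugar or lactate carriers, 2 were called higher with Zscan4f against control (Slc2a12 and Slc2a6) and 3 lower (Slc2a10, Slc16a7 and Slc2a13). Slc2a10 had 5.31, 5.44 and 5.12 TPM with Zscan4f, 10.6, 9.82 and 9.26 TPM with Zscan4f3A and 9.40, 9.49 and 10.2 TPM in control (log2 fold change -0.77 against control, adjusted p = 0.000218), and Slc16a7, MCT2, fell by 0.99 (adjusted p = 0.0131) at no more than 4.20 TPM in any library. The 10 genes that carry pyruvate into the mitochondria and oxidise it gave no call against control (0 higher, 0 lower; median log2 fold change 0.01), and Dld alone was called higher against Zscan4f3A (0.18, adjusted p = 0.0248). Of the 6 tested gluconeogenesis genes, Fbp2, a fructose bisphosphatase best known from muscle, was called higher (0.79, adjusted p = 0.00197) and Pcx and Pck2, which start the route from pyruvate, lower (-0.37, adjusted p = 0.00359, and -0.27, adjusted p = 0.0264). Against Zscan4f3A their values were 0.69 (adjusted p = 0.00526), -0.38 (adjusted p = 0.00395) and -0.41 (adjusted p = 0.0055).

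Of 13 tested genes of glycogen and galactose metabolism, 5 were called higher with Zscan4f against control and 1 lower. Among them were the glycogen phosphorylase Pygl (0.67, adjusted p = 0.00492), Ugp2, which makes UDP-glucose (0.28, adjusted p = 0.00645), and Pygb (0.17, adjusted p = 0.0102), while Galm, the galactose mutarotase, fell by 0.87 on the log2 scale (adjusted p = 0.00101). Of 9 genes of the glycerol, fructose and polyol branches, 4 were called higher and 0 lower, among them the malate dehydrogenase Mdh1 (0.29, adjusted p = 0.00199) and the aldose reductase Akr1b3 (0.34, adjusted p = 0.00968). Got1 (0.21, limma adjusted p = 0.0253) and Sord (0.37, limma adjusted p = 0.0289) were also among them. Of 19 tested upstream regulators 2 were called higher and 1 lower, close to the shares over all genes. Egln3, a hypoxia-inducible prolyl hydroxylase, had 83.0, 86.2 and 85.6 TPM with Zscan4f, 48.4, 47.6 and 46.2 TPM with Zscan4f3A and 42.0, 40.0 and 41.4 TPM in control (1.03, adjusted p = 1.48e-06), Tigar, a fructose bisphosphatase that restrains glycolysis, rose by 0.34 (adjusted p = 0.00304), and Epas1, which encodes HIF-2 alpha, fell by 0.28 (adjusted p = 0.00111). Hif1a and Myc were not called in any comparison. Because the label OSKM includes c-Myc, the Myc level cannot be assigned to the cells' own gene alone. With Zscan4f3A against control none of these 6 lists held a call (0 higher, 0 lower). Only 0.0316% of all genes tested were called there in either direction, so this says nothing particular about the lists.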

How the data were processed

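RNA-seq libraries (3 per group, groups and replicate numbers from the titles) were made from Trizol-extracted total RNA with an Illumina TruSeq kit, per the labels' protocols. Reads were aligned with HISAT2 2.1.0 and abundance was estimated with StringTie, per the submitters' processing notes. No source used here names the build, annotation release or strand setting. The authors deposited TPM and FPKM, both corrected for transcript length, TPM scaled to a fixed sum per library and FPKM by its fragments. The deposited coverage values are mean read depth per gene, and their commonest ratio to FPKM gave the aligned gigabases. No counts were used. Of 54986 gene IDs, 54165 were in GENCODE M21, 97.7% of them with identical coordinates, so coordinates are on GRCm38. The 15 gene IDs with several entries were summed. None of 36 library pairs was identical (0).

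The 15837 genes at 1 TPM or more in 3 or more libraries were fitted as log2(TPM + 1) with limma 3.58.1 in R 4.3.3 (3 group means, all 9 libraries, empirical Bayes with trend, two-sided), and p-values were Benjamini-Hochberg adjusted over all genes tested. Fold changes are on the log2(TPM + 1) scale, which understates those of low genes. Means and SD are on the plain TPM scale. Step totals and isoform shares carry no test. With no counts there is no counting interval, and precision is the SD over 3 libraries. The fit was tested on simulated data for Zscan4f against control: of 15837 genes, 60 of 100 with a log2 change of 0.5 and 93 of 100 with 1 were recovered, and 6 unchanged genes were called. The changed genes were drawn only from those with a mean level above 5 TPM, and all others were left unchanged. These rates may therefore not hold for lower genes or where more genes change.

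Copies were found with BLAST 2.17.0 against GENCODE M21 transcripts (at least 95% identity over at least 80% of the copy). Of the 34 genes, 9 overlap another tested gene, 8 of them on the opposite strand alone (among these Pfkp, Tpi1, Aldoa and Pgm2), and without the strand setting their reads cannot be told apart with certainty. Figures were drawn with matplotlib 3.10.9 and tables made with pandas 2.3.3, on numpy 2.4.6 under Python 3.11.15. The 34 genes, lists, tests and alternatives were chosen with earlier results of these data known. All 34 genes are named, and of each neighbouring list those called with Zscan4f against control, up to the 4 with the smallest p. Of genes in these lists called against Zscan4f3A alone, only Dld is named. Slc2a13, Hif1a and Myc were added after their values were seen. Alternatives were the pseudocount, filter, unit, scaling, prior variance, groups in the fit, replicate block and leaving out each library. Chosen after the data were seen were the sums with sequence-matched copies and the shift of the median gene to 0. The labels give nothing that pairs libraries of the same replicate number. Correlations of deviations between same-numbered libraries ran from -0.0792 to 0.0533. By the mean correlation, 6 of the 9 libraries were closer to their own number than to other numbers, so pairing was not settled.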

Additional observations from a re-analysis of the deposited data

How the results depend on the processing

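Of the 14 genes called higher with Zscan4f against control, 10 were called under all 22 alternatives, as were both called lower. The others, Slc2a3, Pfkp, Pdk1 and Pgm2, lost the call under 9, 9, 5 and 6. Against Zscan4f3A, Pfkl, Aldoa, Tpi1, Pgk1, Eno3, Pkm and Ldhb kept it throughout, whereas Galk1 lost it under 15, Pgam1 under 11, Eno1 under 8, Slc16a1 and Pdk2 under 5 each, Ldha under 4 and Pdk1 under 1. Leaving out 1 library gave 11 to 16 higher and 2 to 3 lower against control, and 7 to 12 higher and 1 to 2 lower against Zscan4f3A, the 7 without Zscan4f replicate 2, while over all 15837 genes 950 to 1582 were called higher against control and 708 to 1087 against Zscan4f3A. With the replicate number as a block, 12 were called higher and 2 lower against control, 11 and 2 against Zscan4f3A, and 0 with Zscan4f3A against control. Over all 15837 genes the block gave 1155 higher and 1349 lower against control, and 908 and 975 against Zscan4f3A. For Zscan4f3A against control it gave 1 and 0. The block brought Slc16a3 past the threshold in both comparisons with Zscan4f (adjusted p = 0.0095 and 0.0121). Zscan4f3A against control gave 0 calls among the 34 under all 22 alternatives. Without a filter 11 and 8 genes were called higher in the 2 comparisons with Zscan4f, of 1139 and 926 among all 33314 genes then tested. Steps lying wholly lower numbered 1 to 2 with Zscan4f against control, 0 to 1 with Zscan4f3A against control and 0 to 2 with Zscan4f against Zscan4f3A when 1 library was left out, and 1 in the last under FPKM or median-of-ratios scaling. Steps wholly higher with Zscan4f3A against control numbered 2 to 5. Causes were not tested. Depth is known only as aligned sequence, and 3 libraries per group limit the precision.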
